A study of Homo sapiens with 12 samples.

Results

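The clustered histone genes encode the linker histone H1 and the core histones H2A, H2B, H3 and H4 that package new DNA, and their levels were examined here in poly(A)-selected RNA of the human leukaemia cell lines TOM-1 and RS4;11. Members were the protein-coding genes of the count table whose symbol starts with H2AC, H2BC, H3C or H4C followed by a number, or is one of H1-1 to H1-6. This gave 70 of the 60664 genes in the table: 6 H1, 17 H2A, 19 H2B, 13 H3 and 15 H4 genes. Of these, 55 lie on chromosome 6, 13 on chromosome 1, 1 on chromosome 12 (H4C16) and 1 on chromosome 21 (H2BC12L). A further 13 pseudogenes with such symbols were left out.

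TOM-1 is a B-cell acute lymphoblastic leukaemia line that carries the BCR-ABL1 fusion of the Philadelphia chromosome, and RS4;11 is a B-cell acute lymphoblastic leukaemia line with a rearranged KMT2A gene. Cells of either line in logarithmic growth were kept for 24 h in control culture or in the presence of 1000 ng/ml ADI-PEG20, a pegylated arginine deiminase that removes arginine from the medium. Both lines are labelled wild type for genotype, and all 4 groups shared the same serum-containing medium. Each group held 3 libraries. The labels do not say that these came from separate cultures, so p-values measure only the spread between these libraries, which may be technical.

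Clustered histone genes are transcribed mainly while DNA is replicated. Their main transcripts end in a short stem-loop instead of a poly(A) tail. Stem-loop binding protein (SLBP) and the U7 small nuclear ribonucleoprotein direct the cleavage that forms this end. When a histone gene is read past the stem-loop, as in cells that have left the cell cycle or when processing fails, the transcript can be cleaved at a downstream signal and polyadenylated. Libraries made by poly(A) capture therefore count polyadenylated forms, together with whatever RNA without a tail was carried over. In bulk RNA, fewer cells that carry a transcript and less RNA per cell cannot be told apart.

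Stem-loops were found in the GENCODE 29 transcript models of 30 of the 64 core histone members, and the flanking bases show how each model continues beyond the end of the main transcript. The sites below are 30 bases long, 5′ to 3′, with the stem-loop in capitals. They are from members described in the results, chosen to show each form of the stem-loop and both short and long models.
H2AC6: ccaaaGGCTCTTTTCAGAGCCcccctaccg
H2AC11: ccaacGGCTCTTTTCAGGGCCacccacgtc
H2BC15: ccaaaGGCTCTTTTCAGAGCCactcagtct
H2BC5: ccaaaGGCTCTTTTAAGAGCCacgcatgtt
H3C10: ccaaaGGCTCTTTTCAGAGCCacccacatg
H4C5: tcaaaGGCCCTTTTCAGGGCCgcccacagt
H4C9: aaaaaGGCCCTTTTTAGGGCCcctaagctt
The form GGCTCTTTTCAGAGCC was shared by 6 H2A, 8 H2B and 3 H3 members. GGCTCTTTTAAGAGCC stood in 3 H2B members and 1 H3 member, and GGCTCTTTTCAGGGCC in H2AC11 alone. All 8 H4 members with a stem-loop had one of the 2 forms with GGCCC in the first arm, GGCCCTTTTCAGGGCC in 5 and GGCCCTTTTTAGGGCC in 3. After the stem-loop the longest model ran on for 1128 bases in H2AC6, 1761 in H2AC11, 377 in H2BC15, 769 in H3C10, 1022 in H4C5 and 212 in H4C9. In H2BC5 a model with the stem-loop ended 39 bases after it.

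By the 3′ end of the gene model, 34 members ended at the stop codon, 11 had under 150 bases after it, and 25 had 150 bases or more, in GENCODE 29. Of these 25, 16 had a poly(A) signal near the end of a long model. The annotation used for counting is not given in the sources used here. It was not GENCODE 29 itself, which lacks some of the identifiers counted and has H3C2 and H3C3 under others. Only if its models resembled those of GENCODE 29 were reads in the tail of a polyadenylated transcript counted for members with a long model and not for those whose model ends at the stop codon.

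The promoters of H2BC11 and H2AC6 are shown because these genes were higher in treated TOM-1 (below) and hold the motifs common in H2A and H2B promoters. The sequences are the 250 bases before the RefSeq start of the gene in GRCh38.p14, read on the gene's strand, and capitals mark matches to the octamer (ATTTGCAT), the CCAAT box (CCAAT), the TATA box (TATAAA) or an E2F site (TTTGGCGC or TTTCGCGC) on either strand. H2BC11 lies at chr6:27132796-27133045 on the minus strand, and H2AC6 at chr6:26123922-26124171 on the plus strand.
H2BC11: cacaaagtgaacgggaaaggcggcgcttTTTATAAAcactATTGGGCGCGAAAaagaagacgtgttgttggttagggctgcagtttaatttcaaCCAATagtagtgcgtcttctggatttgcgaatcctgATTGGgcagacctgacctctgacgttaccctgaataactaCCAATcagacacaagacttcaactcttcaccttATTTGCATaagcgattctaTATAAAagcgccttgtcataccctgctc
H2AC6: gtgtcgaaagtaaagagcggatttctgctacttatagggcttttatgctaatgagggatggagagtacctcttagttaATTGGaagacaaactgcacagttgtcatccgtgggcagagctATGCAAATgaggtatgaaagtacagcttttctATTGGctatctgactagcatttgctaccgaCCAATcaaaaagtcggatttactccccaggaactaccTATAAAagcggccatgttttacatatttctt
In H2BC11 the octamer began 47 bases and a TATA box 28 bases before the start, with CCAAT boxes at 80, 120, 156 and 210 bases. The CCAAT box at 210 bases directly preceded the E2F site at 205. In H2AC6 the octamer stood on the other strand at 130 bases, CCAAT boxes at 68, 98 and 172 bases, and a TATA box at 31. Over the 300-base windows of the 68 member promoters in the RefSeq table, the octamer was present in 39.7%, against 1.77% of all 35116 promoters. It stood in 15 of 20 H2B and 11 of 16 H2A promoters, in 1 of 13 H3 promoters, and in none of 13 H4 or 6 H1 promoters. The H3 case is a second entry of H3C4 whose window is the same as that of the H2AC7 promoter. The other entry of H3C4 had no octamer. The CCAAT box was present in 85.3% of member promoters against 34.6% of all, and in every member promoter of H1, H2A, H2B and H3 but 3 of 13 of H4. The TATA box was in 66.2% against 11.5%, and an E2F site in 19.1% against 1.15%. The other promoters of genes higher in treated TOM-1 held fewer of these letters: CCAAT and TATA boxes for H1-3 and H3C13, CCAAT alone for H2BC15, and none of the 4 motifs for H4C5 and H4C8. A match describes the letters only.

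Total counts per library ran from 18958144 to 35956959, and 12 of 12 B-lymphoblast markers (PAX5, VPREB1 and others) had counts in both lines. Their summed level was 8676 to 10260 CPM (the count scaled to a common library total with TMM factors) in TOM-1 and 3131 to 3606 CPM in RS4;11. Of 5 T-cell markers, only TRAC had counts in TOM-1, while CD2, CD3D, CD3E and CD3G were at 0. In RS4;11 CD3G was at 0 and the other 4 had counts. Their summed level was 122.5 to 210.2 CPM in TOM-1 and 423.9 to 478.7 CPM in RS4;11. Myeloid markers summed to 10.29 to 26.69 and 18.98 to 25.99 CPM, and stromal markers to 2.694 to 11.53 and 32.5 to 45.92 CPM. Erythroid markers stayed at or below 0.4958 and 0.4778 CPM. TOM-1 control replicate 3 stood apart from the other 11 libraries. It had counts in 14963 genes against 19857 to 21997, ribosomal protein genes took 19.75% of its counts against 5.907% to 9.894%, and 27 members had counts in it against 40 to 52. The part of these differences in the histone results was not tested, so the counts of members, the named members and the lists are also given without that library where it matters to them.

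Counts of clustered histone genes were low. All 70 members together took 0.00385% to 0.00957% of a library's counts. Of the 70, 9 were at 0 in every library: H1-6, H2AC1, H2AC15, H2AC25, H2BC1, H2BC12L, H3C4, H3C15 and H4C7. For some of these a 0 need not mean that RNA was absent. In GENCODE 29, H2BC12L, H3C4 and H3C15 share 100% of their 50-base stretches with another gene. For H2AC15 and H3C4, 100% of the exonic bases overlap another gene. Their reads could have been split or dropped in counting. Only 16 members had more than 3 counts in every library. A floor of 3 counts was set, because a reading of 0 does not exclude a few counts. A low-count filter passed 43 members for testing and left out 27, of which 18 had counts. The highest count of any of these 18 in a library was 21 (H2BC14, in treated TOM-1). Without TOM-1 control replicate 3 the filter passed 49 members, adding H2AC4, H2BC10, H2BC14, H3C12, H4C2 and H4C6.

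Levels of members were compared per kilobase of exon, over all 12 libraries. Exon lengths were those of GENCODE 29, which was not the annotation used for counting. They were 381 bases for H2BC12, 642 for H1-2 and 390 for H2AC20, whose models end at the stop codon, against 1668 for H2AC6, which has a long model. How far the order depends on these lengths was not tested. H2BC12 was highest at 15.8 CPM per kb, followed by H1-2 at 9.79 and H2AC20 at 9.57, then H4C1 at 5.32, H2BC5 at 3.13, H2AC8 at 2.88, H2AC14 at 2.85, H1-4 at 2.77, H3C3 at 2.67, H2AC6 at 2.55 and H4C9 at 2.36. With control replicate 3 included, the order differed between groups. In TOM-1 control H2AC20 (13.6) stood above H1-2 (9.53) and H2BC12 (7.46), while H2BC12 was highest in RS4;11 control at 21.3. Control replicate 3 was the highest TOM-1 library for both H2AC20 and H1-2 (below). The lead of H2AC20 in TOM-1 control thus depends on that library, and the order per kilobase without it is not given. From H2BC5 to H4C9, neighbours in this order differed by less than the SD of their TOM-1 control libraries. Levels of genes with copies are uncertain: 16 of 70 members, and 6 of the 43 tested (H4C12, H2AC14, H4C11, H3C13, H2BC12 and H2AC13), share at least 50% of their 50-base stretches with another gene. The leading 5 members of a library held 29.2% to 50.7% of its summed member level.

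The first comparison asks how the polyadenylated histone transcripts of TOM-1 differ after arginine removal. Summed over the 70 members, the level was 45.4, 38.9 and 70.5 CPM in the TOM-1 control libraries and 83.9, 83.2 and 88.1 CPM in the treated libraries. All 3 treated libraries lay above all 3 controls, and control replicate 3 was the control nearest to them. The means were 51.6 ± 16.7 and 85.1 ± 2.64 CPM (SD, n = 3), a ratio of 1.65, or 2.02 without control replicate 3. In RS4;11 the summed level was 63.9, 70.1 and 67.7 CPM in control and 70.5, 68.3 and 59.7 CPM with ADI-PEG20, so that the groups overlapped, at a ratio of 0.984. Levels of both RS4;11 groups lay between those of TOM-1 control replicates 1 and 2 and those of treated TOM-1.

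By family, the ratio of mean summed levels in TOM-1 was 1.22 for H1, 1.43 for H2A, 1.77 for H2B, 2.06 for H3 and 2.04 for H4. Without control replicate 3 these ratios were 2.17, 1.98, 1.78, 2.54 and 2.18. H1 and H2A thus depended most on that library: its summed H1 and H2A levels, 17.2 and 21.7 CPM, were above those of every other TOM-1 library, treated ones included. In RS4;11 the same ratios were 0.765 for H1, 1.14 for H2A, 0.986 for H2B, 0.911 for H3 and 1.06 for H4.

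**Figure D1:**
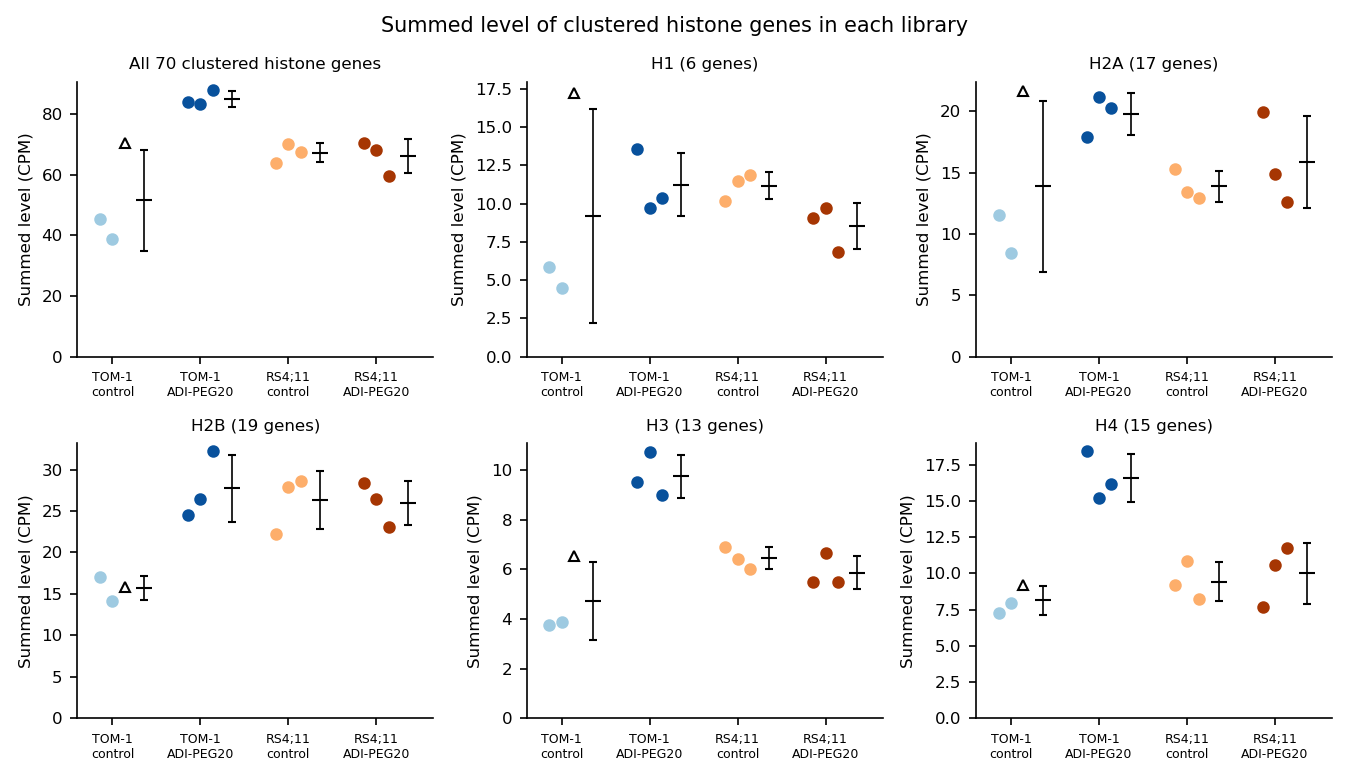
Summed level (CPM) of all 70 clustered histone genes and of each family in each library, by line and treatment. Points are libraries, the open triangle is TOM-1 control replicate 3, and bars give the mean ± SD of 3 libraries. The 3 treated TOM-1 libraries, at 83.2 to 88.1 CPM for all members, sit above the other 9 libraries.

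In TOM-1, 7 of the 43 tested members were higher with ADI-PEG20 and 0 were lower (edgeR quasi-likelihood test, Benjamini-Hochberg adjusted p under 0.05). That is 16.3% higher, where 15.9% of all 17349 tested genes were higher and 15.9% lower. The share of higher members is thus near the background. The median log2 fold change of the tested members was 0.81, against 0.05 for all tested genes, and 36 of 43 values were positive. At an unadjusted p under 0.05 there were 14 of 43 members, and 7289 of all 17349 genes. Without control replicate 3, 14 of 49 members were higher and 0 lower, 28.6% against 21.8% higher and 19.8% lower among all genes, with a median of 1.14 against 0.00. The count also depended on treated libraries. It was 1 of 49 without treated replicate 1, where 21.7% of all genes were called in either direction. Without treated replicate 3 it was 2 of 48 (22.1%). Without treated replicate 2 it was 4 of 47 (21.7%), of which 3 were higher and 1 was lower. A fit to the 6 TOM-1 libraries alone called 0 of 37 (17.2% of all genes in either direction), the replicate-number block 4 of 43 (30.7%) and DESeq2 13 of 43 (38.4%).

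The levels of the 3 treated libraries lay above all 3 controls in 19 tested members and below them in none, where 26.1% of all tested genes lay above and 20.1% below. The members with this pattern include 5 of 9 H3, 6 of 13 H2B, 4 of 8 H4, 2 of 9 H2A and 2 of 4 H1 genes.

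Among linker histones, which bind the DNA between nucleosomes, H1-3 was the member called in every fit that left out 1 library. H1-3 (chr6:26234268-26234933, minus strand, GENCODE 29 on GRCh38; the same for the positions below) had 2, 3 and 0 counts in the TOM-1 controls and 13, 26 and 15 in the treated libraries, or 0.0568, 0.117 and 0 against 0.556, 0.992 and 0.589 CPM. All control libraries were at the floor of 3 counts and every treated library was above it. The ratio of summed counts was 11.4, with a 95% exact interval of 4.58 to 36.4 that covers counting error only. It pools control replicate 3, which had no counts of H1-3 and stood apart from the other libraries. The fitted log2 fold change was 3.43 ± 0.81 (SE; edgeR adjusted p = 0.00702), and 3.00 without control replicate 3 (adjusted p = 0.0141). In RS4;11 its levels were 0.600, 0.823 and 0.526 CPM in control and 0.956, 0.680 and 0.665 CPM with the drug, a range that overlaps that of treated TOM-1.

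H1-2, the H1 gene with the highest level, had 3.95, 3.70 and 10.7 CPM in the TOM-1 controls and 7.14, 5.30 and 5.89 CPM in the treated libraries. Control replicate 3 was the highest of the 6 and the other 2 controls were the lowest. With all libraries its log2 fold change was 0.01 ± 0.36 (adjusted p = 1), and without control replicate 3 it was 0.67 ± 0.24 (adjusted p = 0.0306). H1-4 showed the same dependence, at 1.42, 0.623 and 6.01 CPM in control and 3.98, 2.33 and 3.10 CPM treated, with a log2 fold change of 0.24 (adjusted p = 0.837), or 1.59 (0.0150) without that library. H1-5 was at 0.454, 0.0390 and 0.496 CPM in control and 1.88, 1.11 and 0.786 CPM treated. These H1-5 groups did not overlap, and its log2 fold change of 1.92 missed the threshold (adjusted p = 0.0511), but passed without control replicate 3 (2.25, adjusted p = 0.0170). H1-1 and H1-6 were not tested.

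H2A pairs with H2B in the nucleosome, and 1 of 9 tested H2A members passed. H2AC6 (chr6:26124145-26139116, plus strand; promoter and stem-loop above) was at 3.24, 2.69 and 0.882 CPM in the TOM-1 controls and 5.39, 7.48 and 4.36 CPM in the treated libraries. Every treated library was above every control, and control replicate 3 was the lowest. Its log2 fold change was 1.32 ± 0.39 (edgeR adjusted p = 0.0237), or 0.95 without control replicate 3 (0.0113), and the call was lost without treated replicate 1 or 2, at an adjusted p of up to 0.109. In RS4;11 it was at 4.68, 4.61 and 4.25 CPM in control and 5.42, 4.13 and 3.94 CPM treated, a log2 fold change of 0.00.

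The other named H2A members did not pass in TOM-1. H2AC20 was at 3.01, 2.26 and 10.6 CPM in control and 3.51, 3.24 and 3.42 CPM treated (log2 fold change -0.63, adjusted p = 0.379). Its sign rests on control replicate 3, the highest of the 6 libraries. H2AC11 was at 2.39, 1.60 and 0 CPM in control and 3.38, 2.37 and 3.10 CPM treated (1.11, adjusted p = 0.300), where control replicate 3 had no counts. That library was thus the highest for H2AC20 and the lowest for H2AC11. H2AC16, chosen after its values were seen, was at 0.170, 0.195 and 1.27 CPM in control and 1.37, 2.44 and 2.36 CPM treated. Its log2 fold change was 1.96 (adjusted p = 0.0932), and 3.46 (0.00200) without control replicate 3. H2AC8 was at 0.17 (adjusted p = 0.910) with that library and at 1.65 (0.0306) without it.

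Of 13 tested H2B members, 2 passed. H2BC11 (chr6:27125897-27132750, minus strand) was at 0.426, 0.662 and 0 CPM in control and 1.80, 0.915 and 3.58 CPM in treated TOM-1. The treated libraries were all above the controls but spread widely among themselves. The log2 fold change was 2.46 ± 0.81 (edgeR adjusted p = 0.0372), or 1.95 without control replicate 3 (0.0133), and the ratio of summed counts was 5.17 (95% exact interval 3.51 to 7.81). With 1 library left out at a time, 3 of 12 fits kept the call, those without control replicate 2, control replicate 3 or treated replicate 2, and the adjusted p reached 0.170. In RS4;11 H2BC11 was at 1.59, 1.77 and 1.67 CPM in control and 1.35, 1.17 and 0.665 CPM treated, with no overlap and the opposite sign (log2 fold change -0.65, adjusted p = 1).

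H2BC15 (chr6:27837760-27865798, plus strand) was at 0.965, 0.507 and 0.552 CPM in control and 1.80, 1.87 and 2.36 CPM in treated TOM-1. The groups did not overlap and control replicate 3 lay between the other controls. Its log2 fold change was 1.55 ± 0.47 (edgeR adjusted p = 0.0256), or 1.42 without control replicate 3 (0.0391). The call was lost without control replicate 2 or any one of the treated libraries, at an adjusted p of up to 0.0892. H2BC15, H1-3, H2AC8, H2BC7, H3C7, H3C11 and H4C12 were chosen for description after their values were seen.

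H2BC12, the H2B gene of the highest level, was at 4.06, 1.21 and 3.25 CPM in control and 4.23, 5.07 and 7.94 CPM in treated TOM-1. Its groups did not overlap, and its log2 fold change was 1.01 (adjusted p = 0.0683), or 1.36 (0.0310) without control replicate 1 and 1.09 (0.0206) without replicate 3. H2BC9 had the opposite sign, at 2.04, 4.17 and 4.03 CPM in control and 1.16, 3.32 and 0.904 CPM treated (-0.92, adjusted p = 0.172). Of the 12 fits without 1 library, the one without treated replicate 2, its highest treated library, called it lower (-1.75, adjusted p = 0.0153). H2BC5 was at 1.70, 1.64 and 2.32 CPM in control and 3.55, 2.82 and 3.34 CPM treated, without overlap (0.78, adjusted p = 0.126). H2BC7 was at 0.256, 0 and 1.16 CPM in control and 1.80, 2.33 and 1.30 CPM treated, and passed without control replicate 3 (3.67, adjusted p = 0.00389).

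H3 and H4 form the tetramer at the core of the nucleosome. H3C13 (chromosome 1, 149813271 to 149813681, minus strand) had 7, 0 and 0 counts in the TOM-1 controls and 32, 35 and 30 counts in the treated libraries, or 0.199, 0 and 0 against 1.37, 1.34 and 1.18 CPM. The treated libraries were close together and far above the controls, 2 of which had no counts. The ratio of summed counts was 14.6 (95% exact interval 6.82 to 37.3), and the fitted log2 fold change was 4.0 ± 1.19 (edgeR adjusted p = 0.0227), or 3.55 without control replicate 3 (0.0217). The call was lost without control replicate 2 or any one of the treated libraries, at an adjusted p of up to 0.0663. H3C13 shares 80.4% of its 50-base stretches with another gene, so reads could have been split or dropped in counting. In RS4;11 it stayed at 0.0429 to 0.191 CPM in control and 0.0512 to 0.485 CPM treated. The low-count filter could therefore pass H3C13 only through the treated TOM-1 libraries, where it is high. Its call, 1 of the 7 in TOM-1, is thus not independent of how genes were chosen for testing.

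The H3 members of the highest level did not pass. H3C6 was at 1.22, 0.974 and 0 CPM in control and 3.25, 2.48 and 1.57 CPM treated, without overlap (log2 fold change 1.68). H3C10 was at 0.369, 1.60 and 1.88 CPM in control and 0.471, 1.56 and 1.65 CPM treated (log2 fold change -0.04). H3C3 was at 0.341, 0.234 and 4.30 CPM in control and 1.54, 1.98 and 1.81 CPM treated. Control replicate 3 was the highest library of H3C3 and the only control of H3C6 without counts. The H3C3 log2 fold change was 0.16 (adjusted p = 0.940) with that library and 2.59 (0.00688) without it. H3C11 was at 0.341, 0.195 and 0 CPM in control and 0.984, 1.60 and 0.864 CPM treated (2.57, adjusted p = 0.0522), and passed without control replicate 1 (3.35, 0.0435). H3C7 had no counts in the controls and 1, 19 and 1 counts in the treated libraries, so that 1 library held nearly all of its reads, and was at least 2.195-fold higher against the floor of 3 counts per library (adjusted p = 0.0971).

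H4C5 and H4C8 were the H4 members that passed, of 8 tested. H4C5 (chr6:26204552-26206038, plus strand) was at 0.596, 0.312 and 1.21 CPM in control and 3.21, 2.48 and 3.77 CPM in treated TOM-1. The groups did not overlap, although control replicate 3 was the highest control. Its log2 fold change was 2.17 ± 0.65 (edgeR adjusted p = 0.0234), or 2.76 without control replicate 3 (0.00155). The call was lost without control replicate 1 or 2 or treated replicate 1 or 3, at an adjusted p of up to 0.083. H4C8 (chr6:26277609-26285638, minus strand) was at 1.31, 1.83 and 0.772 CPM in control and 3.72, 3.32 and 3.06 CPM treated, again without overlap. Its log2 fold change of 1.36 ± 0.47 (adjusted p = 0.0442) became 1.10 without control replicate 3 (0.0667), and it was called in 2 of the 12 fits that left out 1 library, those without control replicate 2 or RS4;11 control replicate 1.

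H4C9 was at 1.70, 2.22 and 0.276 CPM in control and 2.91, 2.56 and 2.75 CPM in treated TOM-1, without overlap (log2 fold change 0.94, adjusted p = 0.203). H4C1 was at 0.823, 0.974 and 4.14 CPM in control and 4.32, 1.98 and 2.83 CPM treated (0.64, adjusted p = 0.642). Control replicate 3 was thus low for H4C9 and high for H4C1. H4C12 had the lowest log2 fold change of all tested members, -2.55 (adjusted p = 0.159), on at most 16 counts in a TOM-1 library. It passed without control replicate 2 (-3.17, adjusted p = 0.0411), and all of its 50-base stretches are shared with another gene.

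**Figure D2:**
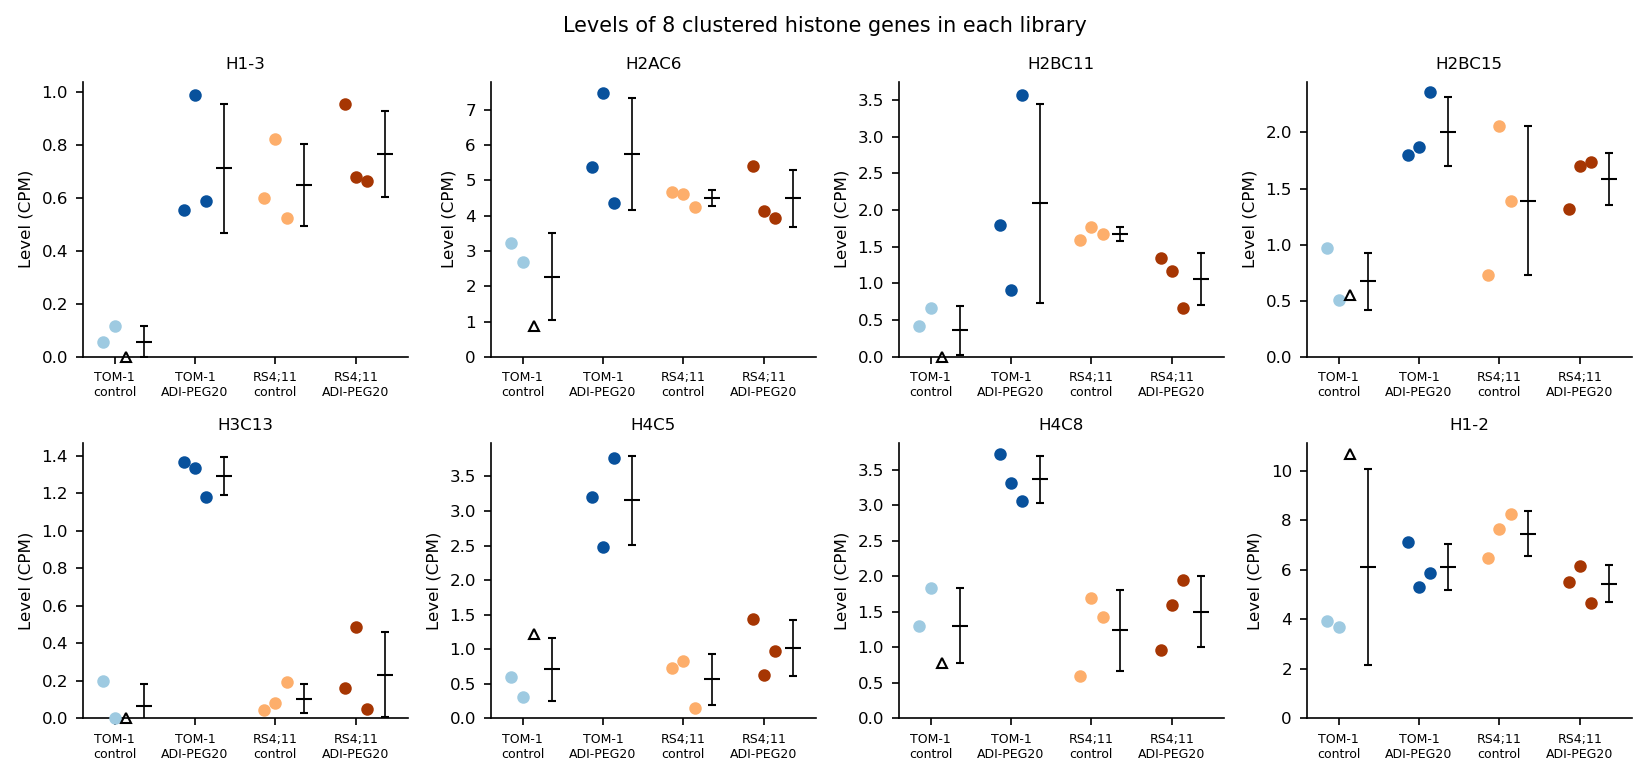
Level (CPM) in each library of the 7 clustered histone genes higher in treated TOM-1 and of H1-2. Points are libraries, the open triangle is TOM-1 control replicate 3, and bars give the mean ± SD of 3 libraries; in the 7 genes every treated TOM-1 library lies above every TOM-1 control, while for H1-2 control replicate 3 is the highest at 10.7 CPM.

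Control replicate 3 did not depart in the same direction for all members. Of the 70, 10 were at 0 there while above 3 counts in both other TOM-1 controls, and 18 were highest there among the 3 controls. It was above every treated library in 11 members: H1-2, H1-4, H2AC8, H2AC12, H2AC14, H2AC20, H2BC9, H3C3, H3C8, H3C10 and H4C12. The shares of all genes with these patterns are not given, so the patterns are not shown to be particular to histone genes. Over the whole table, control replicate 3 had counts in 14963 genes, against 20283 and 20109 in the other TOM-1 controls. Of the 7 members called with all libraries, 6 were also among the 14 called without it. The 8 added were H1-2, H1-4, H1-5, H2AC8, H2AC16, H2BC7, H2BC12 and H3C3, and H4C8 was lost. By family the calls without it were 4 of 4 H1, 3 of 10 H2A, 4 of 15 H2B, 2 of 10 H3 and 1 of 10 H4 members. All were higher, as were 21.8% of all genes tested in that fit.

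Levels were also summed by the 3′ end of the gene model, which the choice of members did not use. For the 25 members with a long model the summed level in TOM-1 was 25.2, 23.7 and 18.9 CPM in control and 41.1, 44.4 and 44.7 CPM with the drug. The groups did not overlap and control replicate 3 was the lowest. For the 34 members whose model ends at the stop codon it was 16.8, 11.7 and 40.0 CPM in control and 33.5, 30.3 and 34.8 CPM treated, so that control replicate 3 was above every treated library. The 11 members with a short tail gave 3.46, 3.62 and 11.5 CPM in control and 9.37, 8.51 and 8.60 CPM treated, with the same library highest. In RS4;11 the 3 classes overlapped between control and treatment, and for the long models the ranges were 30.5 to 38.3 and 33.4 to 35.1 CPM.

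Of the members called in TOM-1, 5 had a long model, of 19 such members tested. Another 2 of 18 ended at the stop codon, and 0 of 6 had a short tail. Of all tested genes, 15.9% were higher. Without control replicate 3 the counts for these classes were 5 of 19, 7 of 23 and 2 of 7, against 21.8% of all genes. The median log2 fold changes were then 0.95, 1.58 and 1.08. The difference between classes was not tested. RNAs that are made without a poly(A) tail served as a measure of carry-over: 23 such genes were in the table, 12 of them at 0 in every library. Their summed level was 7.10, 7.79 and 14.8 CPM in the TOM-1 controls and 4.19, 10.4 and 6.91 CPM in the treated libraries. It was highest in control replicate 3 and overlapped between the groups otherwise. In RS4;11 it was 13.5 to 20.6 CPM in control and 15.1 to 22.9 CPM treated, above most TOM-1 libraries. Its part in the histone levels was not tested.

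**Figure D3:**
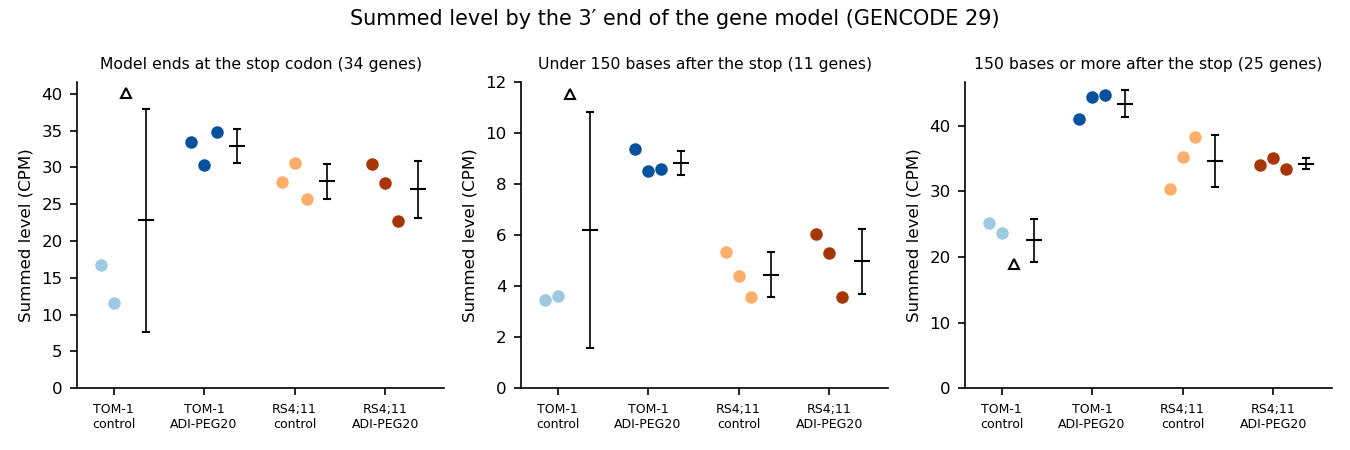
Summed level (CPM) in each library of members whose GENCODE 29 model ends at the stop codon, runs under 150 bases past it, or runs 150 bases or more past it. Points are libraries, the open triangle is TOM-1 control replicate 3, and bars give the mean ± SD of 3 libraries. Control replicate 3 is the highest library of the first and second class, at 40.0 and 11.5 CPM, and the lowest of the third, at 18.9 CPM.

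In RS4;11, 0 of 43 tested members were called higher or lower with ADI-PEG20, as were 0 (0%) of all 17349 genes. The edgeR test gave 0 members at an unadjusted p under 0.05, and DESeq2 called 0. The median log2 fold change was 0.07, with 23 of 43 values positive and a range of -1.57 (H2BC8) to 1.44 (H4C1). Control and treated libraries did not overlap in 2 members that were higher (H2AC20 and H2BC13) and 5 that were lower (H1-2, H1-5, H2BC8, H2BC11 and H3C8), where 7.71% and 9.05% of all genes showed this. H1-2 was at 6.48, 7.66 and 8.27 CPM in control and 5.50, 6.16 and 4.66 CPM treated, a log2 fold change of -0.46. H2BC12 was at 9.31, 8.56 and 6.50 CPM in control and 8.80, 7.38 and 6.04 CPM treated. Without TOM-1 control replicate 3, which also shapes the shared estimate of spread, 0 of 49 were called, against 0.317% of all genes, and 3 members had an unadjusted p under 0.05.

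The difference between the effects in TOM-1 and RS4;11 was tested as an interaction. No member of 43 passed, where 11.9% of all genes did, 5.89% with a larger effect in TOM-1 and 6.05% with a smaller one. At an unadjusted p under 0.05 edgeR gave 5 of 43 members, and 4728 of all 17349 genes. DESeq2 called 4 of 43 after adjustment, and 21.5% of all genes. The median difference was 1.14 (log2) over the tested members and 0.04 over all genes. The nearest to the threshold were H1-3 (3.19, adjusted p = 0.0670), H3C11 (3.81, 0.0754), H2BC11 (3.11, 0.0905) and H1-5 (2.54, 0.100). Without TOM-1 control replicate 3, 5 of 49 members had a larger effect in TOM-1, 10.2% against 15.7% of all genes in that direction. They were H1-2 (1.13, adjusted p = 0.0102), H1-5 (2.87, 0.0223), H2AC16 (3.72, 0.0123), H2BC11 (2.60, 0.0155) and H3C11 (3.31, 0.0352). Leaving out TOM-1 control replicate 1 or 2 gave 1 call each, of 49 and 48 members, where 15% and 14.5% of all genes were called. The share of passing members was below the background in the fit of 12 libraries and in the one lacking control replicate 3. That share does not decide whether a single member differs between the lines. None of the 7 members called in TOM-1 passed the interaction test in the fit of 12 libraries. H2BC11 passed only without TOM-1 control replicate 3, H3C13 only without replicate 1 and H1-3 only without replicate 2, among edgeR fits that left out 1 library. A difference between the lines is thus not shown for these 7 when every library is kept.

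**Figure D4:**
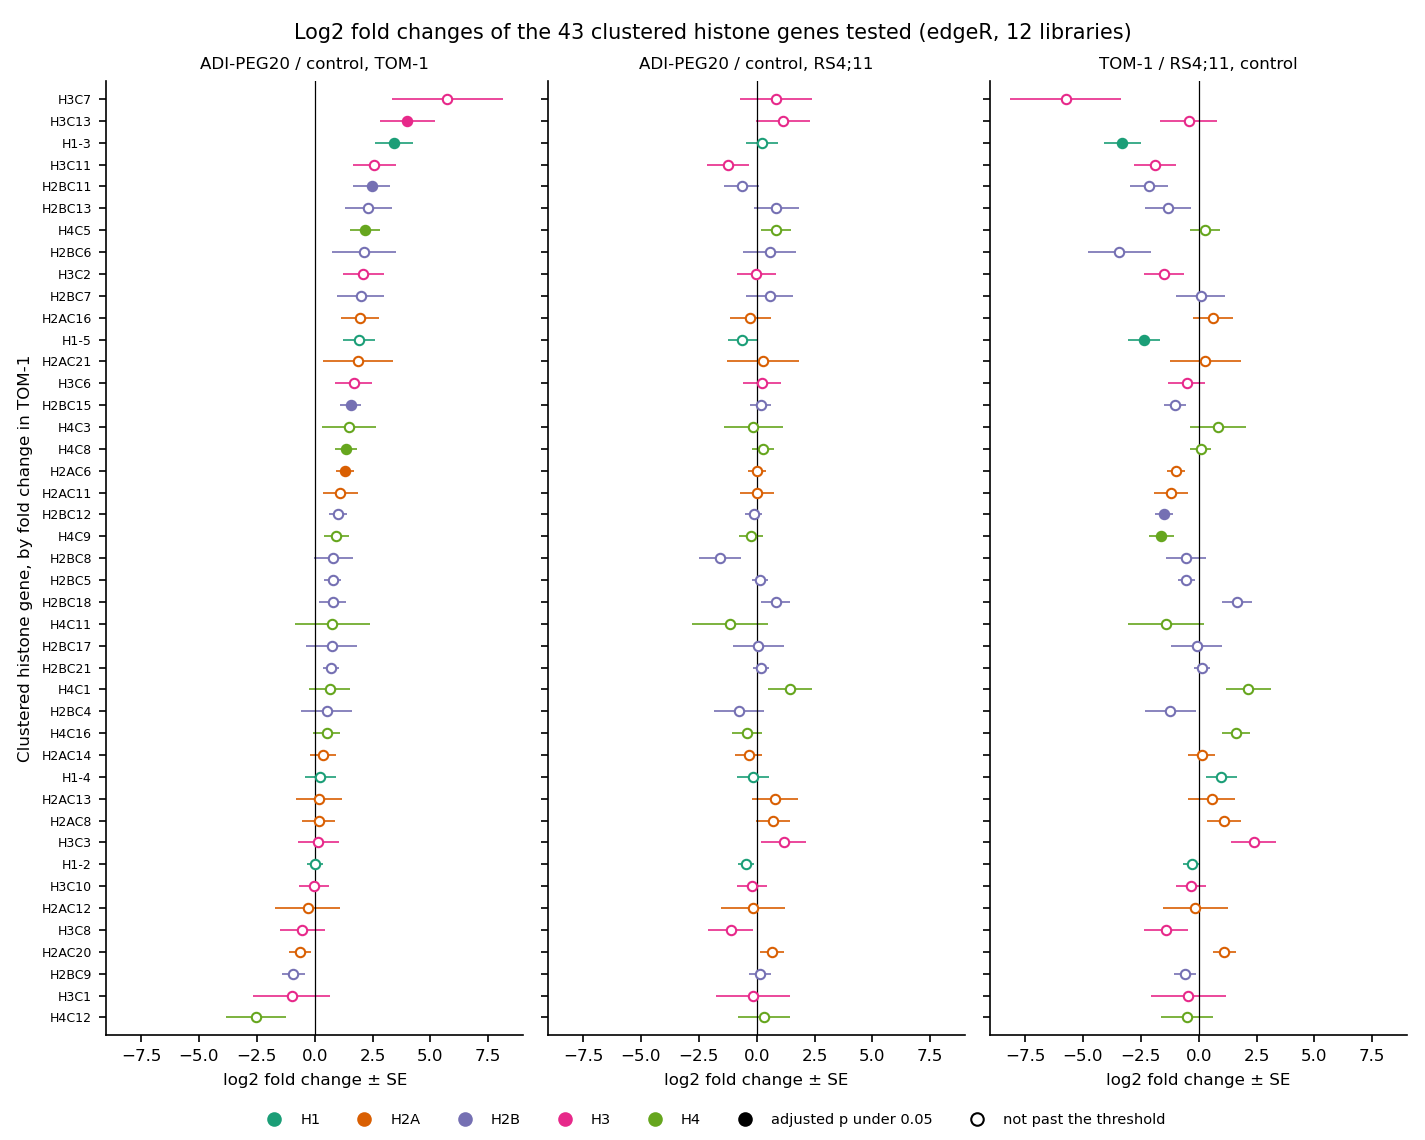
Log2 fold change ± SE of each of the 43 tested clustered histone genes with ADI-PEG20 in TOM-1, with ADI-PEG20 in RS4;11, and between TOM-1 and RS4;11 in control culture, ordered by the TOM-1 value and coloured by family. Filled points passed an adjusted p of 0.05 (edgeR): 7 in the first panel, all above 0, none in the second, and 4 in the third, all below 0.

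In control culture TOM-1 had lower levels than RS4;11 in 4 of 43 tested members and higher levels in none. This is 9.3% against 18.4% lower and 16.2% higher among all genes, below the background. H1-3 was lower by -3.30 ± 0.81 on the log2 scale (edgeR adjusted p = 0.00718) and H1-5 by -2.37 ± 0.69 (0.0191), with RS4;11 control levels of 1.97, 1.40 and 1.77 CPM for H1-5. H2BC12 differed by -1.51 ± 0.39 (0.0104) and H4C9 by -1.61 ± 0.53 (0.0334), at 4.03, 5.19 and 3.87 CPM in RS4;11 control. The H4C9 call was lost without any one of the RS4;11 controls, at an adjusted p of up to 0.094, and the H1-5 call without RS4;11 control replicate 1 (0.0591). For all 4 genes the libraries of the lines did not overlap, as was so for 11 lower members and 1 higher one (H2BC18), where 24.4% and 18.3% of all genes showed this. The median log2 difference of the tested members was -0.44.

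Without TOM-1 control replicate 3, 7 of 49 members were lower in TOM-1 and 0 higher, 14.3% against 27.5% and 25.4% of all genes. The 7 were those 4 with H1-2 (-0.96, adjusted p = 0.00213), H2BC11 (-1.63, 0.0290) and H4C6, an H4 gene with 9, 3 and 7 counts in RS4;11 control and none in TOM-1, at least 2.30-fold lower in TOM-1 against the floor of 3 counts per library. Without TOM-1 control replicate 1, 8 of 49 members were lower and 1 higher, where 32.3% of all genes were called in either direction. Without replicate 2, 8 of 48 were lower and 3 higher (32.4%). Without RS4;11 control replicate 1, 2 of 48 were lower and 0 higher (25.7%). In the H1 family, levels in TOM-1 control replicates 1 and 2 were thus below those of RS4;11, and levels in treated TOM-1 were near them: for H1-5, 0.786 to 1.88 CPM in treated TOM-1 against 1.40 to 1.97 CPM in RS4;11 control.

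Genes that act on or beside histone supply were examined in 5 lists, whose median log2 fold changes in treated TOM-1 lay between -0.65 and 0.00. The counts in this and the following paragraphs stand beside 15.9% lower and 15.9% higher among all tested genes. Without control replicate 3 those shares were 19.8% lower and 21.8% higher. Of 55 genes of DNA replication and G1/S, 29 were lower and 2 higher (E2F2 and E2F8), with a median log2 fold change of -0.48. The helicase subunit MCM5 fell by 1.66 and cyclin E1 (CCNE1) by 1.45 on the log2 scale. Without control replicate 3, 37 were lower and 3 higher, with the same median. Of 21 histone chaperones and assembly factors, 12 were lower and 1 higher, with a median of -0.62, or 13 and 3 with a median of -0.47 without control replicate 3. NASP, a chaperone of H3 and H4, fell by 0.97 (edgeR adjusted p = 1.14e-04), ASF1B fell by 0.74 (0.00403) and CHAF1B, a subunit of chromatin assembly factor 1, by 0.62 (0.0063), while ASF1A rose by 1.18 (2.62e-05). CHAF1A was at -0.25 (0.117).

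The processing machinery showed no single direction, with 9 of 25 genes lower, 3 higher and a median of -0.03, or 11 lower, 5 higher and a median of -0.15 without control replicate 3. SLBP was at 186 ± 8.27 CPM in TOM-1 control and 113 ± 7.0 CPM with the drug (SD, n = 3), and fell by 0.72 ± 0.11 on the log2 scale (edgeR adjusted p = 5.08e-04), the same without control replicate 3. In RS4;11 its mean was 266 CPM in control and 243 CPM treated, which did not pass. CPSF2 rose by 0.84 (0.00303) and SYMPK fell by 0.45 (0.0238), both parts of the cleavage complex at histone and other 3′ ends, while the nuclease CPSF3 was at 0.18 (0.268). The exonuclease ERI1, which trims histone mRNA, rose by 0.69 (0.0291), a call lost without any one of the treated TOM-1 libraries, without RS4;11 control replicate 2 or 3, or without RS4;11 treated replicate 2 or 3. SYMPK was lost without treated TOM-1 replicate 1 or 3. Without TOM-1 control replicate 3, ERI1 was at 0.42 (4.30e-04) and SYMPK at -0.29 (0.00267). NPAT, the activator of histone gene transcription, was at 0.24 (0.430), CASP8AP2 at 0.75 (0.251), the U7 subunits LSM10 and LSM11 at -0.68 (0.110) and 0.07 (0.844), ZNF473 at 0.22 (0.423) and CSTF2 at -0.03 (0.948). LSM10 passed without control replicate 1 (-0.91, 0.0450) or 2 (-0.97, 0.0209), but was at -0.11 (0.620) without replicate 3, and CASP8AP2 (0.27, 0.0101) and CPSF3 (0.24, 0.0195) passed without replicate 3. Of 16 general cleavage and polyadenylation genes, 5 were lower and 1 higher (FIP1L1), with a median of 0.00, and without control replicate 3 these counts were 7 and 4.

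Most histone genes outside the clusters make polyadenylated mRNA and are expressed outside S phase too. Of 8 tested and reported, 5 were lower and 1 higher in treated TOM-1, with a median log2 fold change of -0.65, and without control replicate 3 the counts were 5 and 2 of 9. H3-3A, a gene of the replacement histone H3.3, fell by 1.35 on the log2 scale (edgeR adjusted p = 1.84e-05), from a mean of 415 to 163 CPM, while H3-3B, the other H3.3 gene, rose by 0.62 (0.00281). H2AX fell by 1.29 (0.00177), or by 0.84 (4.39e-10) without control replicate 3, MACROH2A1 by 0.74 (1.41e-04), H2AZ2 by 0.61 (0.00141) and H2AZ1 by 0.68 (0.0325). The H2AZ1 call was lost without any one of the treated TOM-1 libraries, with adjusted p-values up to 0.089, and its value without control replicate 3 was -0.28. H1-10 was at 0.55 (0.283), or 1.34 (9.26e-10) without control replicate 3, and CENPA at -0.11 (0.782). H2AJ was not tested.

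In RS4;11 no gene of these 5 lists passed the threshold, as none of all 17349 tested genes did. The list medians were -0.06 to -0.02.

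**Figure D5:**
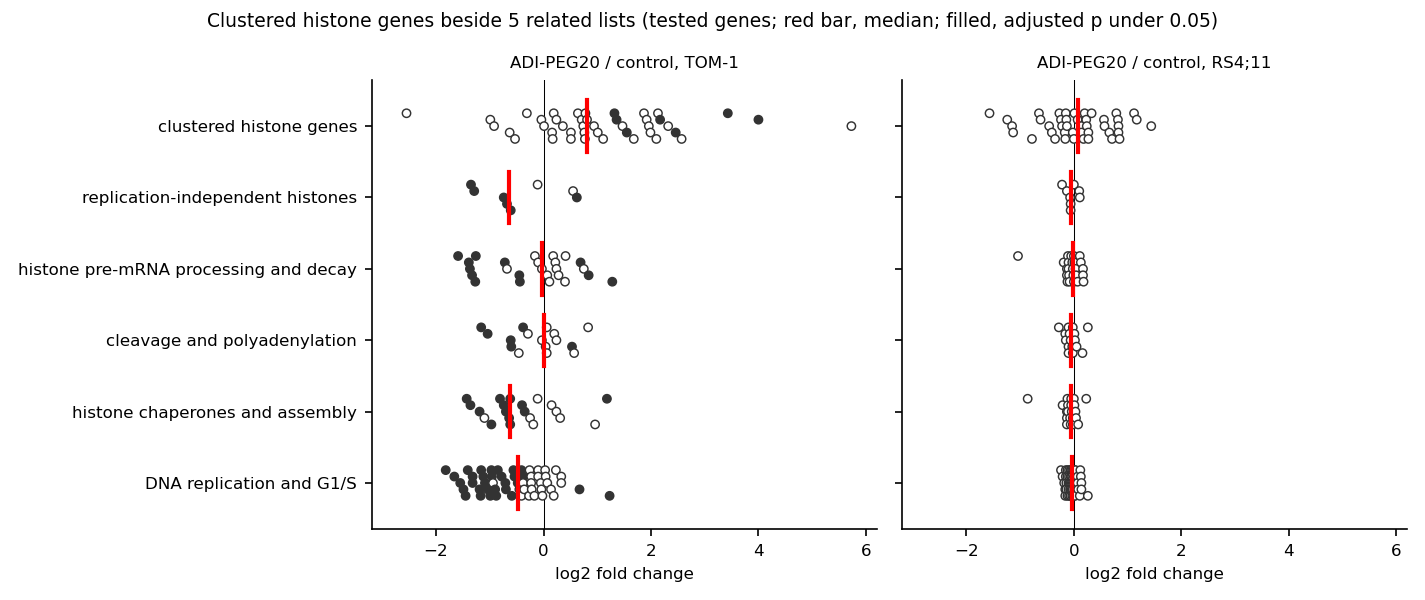
Log2 fold change with ADI-PEG20 in TOM-1 and in RS4;11 of the tested clustered histone genes and of 5 related lists. Each point is a gene, filled where its adjusted p was under 0.05 (edgeR), and the red bar is the list's median: in TOM-1 it is 0.81 for the clustered histone genes and -0.48 for DNA replication and G1/S.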

How the data were processed

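Poly(A) RNA of 12 libraries in 4 groups was analysed from raw counts per Ensembl gene, whole numbers that the authors deposited without normalization. RNA was purified on columns and captured by its poly(A) tail, per the labels' protocols. The submitters' processing notes name hg38, STAR, SAMtools and featureCounts, and the annotation, strand setting and versions are not given in the sources used here. Without strand, reads of a gene and of one overlapping it on the other strand cannot be told apart; of the 43 tested members 1 (H2BC6) shares at least 10% of its exonic bases with another gene.

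Every column was matched to a sample through its description. Symbols were looked up in a list of Ensembl names (60463 of 60664 identifiers) and 9 from GENCODE 29 names; positions, gene models and stem-loops from GENCODE 29, which held 58396 identifiers; promoters from RefSeq on GRCh38.p14, with 68 entries for 64 members. In R 4.3.3, edgeR 4.0.16 was used with filterByExpr (17349 genes tested), TMM scaling and a group-means quasi-likelihood model over all 12 libraries, which share 1 estimate of spread. P-values were adjusted over all tested genes (Benjamini-Hochberg) at a threshold of 0.05. SE is the size of the log2 fold change divided by the square root of F. Without TOM-1 control replicate 3, 18321 genes were tested. Levels are CPM scaled by TMM. Ratio intervals are exact and, like the floor of 3 counts (0.0852 to 0.165 CPM), cover counting error only. They pool all libraries of a group, TOM-1 control replicate 3 included, and were not computed without it. In that library all 27 members with counts exceeded 3 counts, which was so in no other library.

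Members and lists were chosen with earlier results of these data known. Named members are the 3 of each family with the highest mean level, and per comparison the 3 with the largest change in each direction that passed the threshold, reached a mean of 1 CPM and had no overlap between groups; 25 genes outside the clusters were named whatever their values, and 1 more of that set is not reported here and was left out of its list. Other named genes were chosen after their values were seen. Alternatives were other scalings (DESeq2 size factors, upper quartile), no filter, a mean of at least 10 counts, the Wald test of DESeq2 1.42.0, a block for the replicate number, only the 6 libraries of a comparison, and leaving out each library. Tested on simulated data with 16364 genes, the TOM-1 comparison recovered 28 of 100 genes changed 2-fold and 67 of 100 changed 4-fold, with 8 false calls. Figures were drawn with matplotlib 3.10.9 in Python 3.11.15.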

Additional observations from a re-analysis of the deposited data

Results flagged for a closer look

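For 9 of the 25 genes outside the clusters that were named whatever their values, the effect of ADI-PEG20 differed between TOM-1 and RS4;11 by an interaction test across all genes (edgeR, adjusted p under 0.05). H2AJ, 1 of the 25, was not tested. Of all 17349 tested genes 11.9% passed this test, and no clustered histone gene did. On the log2 scale, TOM-1 minus RS4;11, the difference was 1.2 for the chaperone ASF1A (8.71e-04), 0.83 for CPSF2 (0.0426) and 0.69 for H3-3B (0.0254). It was -1.45 for H3-3A (5.00e-04), -1.29 for H2AX (0.0282), -0.91 for NASP (0.0046), -0.72 for H2AZ2 (0.0113), -0.6 for MACROH2A1 (0.0108) and -0.59 for SLBP (0.0290).

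All 9 also passed without TOM-1 control replicate 3. In that fit H1-10 (1.39, edgeR adjusted p = 8.06e-08), ASF1B (-0.51, 2.74e-04) and ERI1 (0.36, 0.0267) passed too. So did CHAF1B (-0.42, 0.0337) and H2AZ1 (-0.21, 0.0424). Among all genes 15.7% then passed with a larger effect in TOM-1 and 14.7% with a smaller one. The CPSF2, H3-3B, H2AX and SLBP differences each missed the threshold in at least 8 of the fits that left out 1 other library, with adjusted p-values up to 0.127, 0.108, 0.0704 and 0.0827. Groups of 3 libraries were not examined for single outlying values.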

How the results depend on the processing

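In TOM-1 the 7 calls became 13 with DESeq2, 4 with the replicate number as a block and 0 with the 6 libraries of the comparison alone. Of all genes, these fits called 38.4%, 30.7% and 17.2%. The median of 0.81 became 1.08 with the block. Leaving out 1 library gave 1 to 14 calls and medians of 0.73 to 1.23, where 21.7% to 41.6% of all genes were called. In RS4;11, 0 members were called under every alternative, with medians of -0.03 to 0.09 when 1 library was left out. For the difference between the lines the 0 calls became 1 with a mean of at least 10 counts and 4 with DESeq2, against 14.1% and 21.5% of all genes. When 1 library was left out there were 0 to 5 calls, against 6.39% to 30.4% of all genes, with medians of 0.81 to 1.24. Between the lines in control culture the 4 calls became 7 with no filter (1 higher, 6 lower), 11 with DESeq2 (3 higher, 8 lower) and 1 with the 6 libraries alone. Of all genes, these fits called 18.7%, 40% and 23%. The median of -0.44 became -0.62 with the block. Leaving out 1 library gave 2 to 11 calls, against 25.7% to 52.8% of all genes, and medians of -0.71 to -0.36. Neither scaling alternative moved these counts from 7, 0, 0 and 4. In the same comparison without TOM-1 control replicate 3, H1-10 turned from 0.08 to -0.72, H2AZ1 from 0.16 to -0.26 and H2AX from 0.15 to -0.3; over the 12 fits without 1 library they ran up to 0.32, 0.29 and 0.3. The cause was not tested. Fits without 1 library, and those of 6 libraries, also tested other numbers of genes.

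No label ties libraries of the same replicate number, and no clear pairing was seen. Same-numbered TOM-1 control and treated libraries correlated at -0.057 to -0.014 in their deviations from the group means. Those of RS4;11 correlated at 0.053 to 0.213. With 3 libraries per group, and TOM-1 control replicate 3 apart from the rest, these values cannot settle whether same-numbered libraries shared a batch. With the block H1-3, H2AC6, H3C13 and H4C5 were still called in TOM-1, while H2BC11, H2BC15 and H4C8 had adjusted p-values of 0.0705, 0.0509 and 0.0508. H2AC6 was called lower in TOM-1 than in RS4;11 control (-1.08, adjusted p = 0.0449).

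Of 5415 alternatives for single genes and lists, 5127 kept their call, 149 lost it, 85 gained it, 51 counts moved and 3 turned sign. Low counts limit what can be seen: 27 of 70 members could not be tested, and 14 never exceeded 3 counts in a library. In simulated data of 16364 genes, not limited to the members, most 2-fold changes were missed. That result does not separate low counts from the spread between libraries.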
